A study of Mus musculus with 22 samples.

Results

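The genes described here are 8 genes of cholesterol synthesis and its control, measured by RNA sequencing in haematopoietic stem cells (HSCs) of the mouse. They were found by symbol in the deposited expression table, and all 8 were there, among 13594 listed genes. Hmgcs1 and Idi1 act in the mevalonate pathway, Fdps makes farnesyl pyrophosphate, Fdft1 makes squalene, and Sqle, Lss and Cyp51 carry squalene to the sterol ring and trim it. Insig1 encodes a protein of the endoplasmic reticulum that holds back the regulators of the pathway. None of the 8 takes cholesterol into the cell, so uptake is described through a list of other genes. The mice lacked Cd53 (KO), a gene for a membrane protein of the tetraspanin family found on leukocytes, or were their wild-type (WT) littermates. HSCs were sorted as KSL cells without CD48 and with CD150. Saline-treated mice gave bone marrow (BM) only, with 4 libraries of WT and 3 of KO. The cytokine G-CSF, granulocyte colony-stimulating factor, was given for 7 days to the others, which gave BM, with 3 libraries of WT and 4 of KO, and spleen, with 4 of each genotype, which makes 6 groups. Age, strain and the kind of knockout allele are not given in the sources used here, and no spleen of saline-treated mice was analysed here.

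Cells make cholesterol from acetyl-CoA through mevalonate, isoprenoids, squalene and lanosterol, and they import it in lipoproteins. When sterol in the endoplasmic reticulum is low, SCAP carries the SREBP proteins to the Golgi, where they are cleaved and released as transcription factors for the enzymes and for Insig1 itself. When sterol is high, INSIG proteins keep SCAP in place. Dividing cells need sterol for new membrane, and farnesyl and geranylgeranyl groups made on the way anchor signalling proteins to membranes.

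The libraries held 22578088 to 31268856 reads in the listed genes, and 1 read was worth 0.0306 to 0.0465 CPM. CPM is the reads of a gene scaled to a common library size. The library size behind the deposited values was 0.938 to 1.06 times the reads in the listed genes. Values below are log2 CPM as the authors deposited them. Cd53 was lower in KO than in WT in each setting, with log2 fold changes of -2.84 ± 0.24 (SE) in saline BM, -3.41 ± 0.24 in BM after G-CSF and -3.33 ± 0.22 in spleen. KO libraries still held Cd53 reads, with means of 9.40 CPM in saline BM, 80.8 in BM after G-CSF and 78.7 in spleen. The WT means were 60.8, 854 and 794 CPM, so treated KO lay above saline WT. Of the sort-gate and identity markers of HSCs, 11 of 11 were above 3 reads in at least 1 library of every group. Their summed level was 4670 to 5378 CPM in saline BM and 3530 to 4555 CPM after G-CSF. Cd48, which the gate excludes at the protein level, rose under the treatment, with log2 fold changes of 1.78 ± 0.31 (SE) for WT and 1.79 ± 0.31 for KO. Replicates are numbered samples of a group, and nothing says whether each came from 1 animal, so the tests measure the spread between these samples.

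Promoter sequences could be matched for 5 of the 8 genes, Hmgcs1, Idi1, Lss, Cyp51 and Insig1, in RefSeq (build GRCm38.p6), as windows of 250 bases before to 50 after the start of transcription. The sterol regulatory element was searched as TCACNCCAC on both strands, and only exact matches were counted. It was in 1 of these 5, Hmgcs1, at position -137 from the start, and in 1.24% of 32851 promoters. Sterol elements that deviate from these letters would be missed, so a promoter without a match may still hold one. The CCAAT box, read by the factor NF-Y, was searched as CCAAT on both strands. It was in 5 of 5, beside 37.4% of all promoters, and the GC box GGGCGG was in 5 of 5, beside 35.7%. TCACNTGA, the E-box that SREBP proteins also bind, was in 0 of 5 and in 4.18% of all promoters. The promoters below belong to the member whose difference with G-CSF passed in both genotypes and to a pair that was lower in WT spleen. Capitals mark matches to TCACNCCAC and to CCAAT or its reverse complement ATTGG. That of Hmgcs1 lies at chr13:119690101-119690400 on the plus strand, that of Cyp51 at chr5:4104648-4104947 on the minus strand and that of Insig1 at chr5:28071162-28071461 on the plus strand.
Hmgcs1: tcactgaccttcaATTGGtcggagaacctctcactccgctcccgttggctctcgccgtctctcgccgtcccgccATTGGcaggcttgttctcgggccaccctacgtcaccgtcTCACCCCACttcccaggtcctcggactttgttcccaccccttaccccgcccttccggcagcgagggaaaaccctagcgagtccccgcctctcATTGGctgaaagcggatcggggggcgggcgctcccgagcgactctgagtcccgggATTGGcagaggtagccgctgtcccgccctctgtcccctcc
Cyp51: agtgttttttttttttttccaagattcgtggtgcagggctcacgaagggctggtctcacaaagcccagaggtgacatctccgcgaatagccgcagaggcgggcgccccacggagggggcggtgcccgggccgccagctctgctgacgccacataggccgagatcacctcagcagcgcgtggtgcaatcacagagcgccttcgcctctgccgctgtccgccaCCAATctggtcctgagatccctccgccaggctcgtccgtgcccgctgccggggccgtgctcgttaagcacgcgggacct
Insig1: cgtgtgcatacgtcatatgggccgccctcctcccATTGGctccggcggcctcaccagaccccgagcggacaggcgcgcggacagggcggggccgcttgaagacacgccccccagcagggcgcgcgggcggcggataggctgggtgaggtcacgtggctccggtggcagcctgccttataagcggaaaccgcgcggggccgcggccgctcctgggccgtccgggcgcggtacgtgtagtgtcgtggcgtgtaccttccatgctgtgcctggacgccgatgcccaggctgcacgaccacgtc
Hmgcs1 holds 1 exact match to TCACNCCAC and 4 to the CCAAT box, while Cyp51 and Insig1 hold 1 CCAAT match each in this window. Whether Cyp51 and Insig1 hold other forms of the sterol element was not searched.

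On build mm10, Hmgcs1 (ENSMUSG00000093930) lies at chr13:119690379-119708260, Fdft1 (ENSMUSG00000021273) at chr14:63145150-63179578 and Sqle (ENSMUSG00000022351) at chr15:59315077-59331192. Cyp51 (ENSMUSG00000001467) lies at chr5:4081145-4104746 and Insig1 (ENSMUSG00000045294) at chr5:28071363-28078662. Idi1 is on chromosome 13, Fdps on 3 and Lss on 10. All 8 genes passed the filter on low values, and per kilobase of annotated exon their mean levels over the 22 libraries differed widely. Sqle was highest with 20.4 CPM per kilobase, followed by Insig1 (18.4), Cyp51 (16.3), Hmgcs1 (15.0) and Fdft1 (11.3). Fdps lay at 7.36, Lss at 4.29 and Idi1 at 0.876 CPM per kilobase. The exon length is the union over all annotated transcripts, so genes with long minor transcripts come out lower. Idi1, the isomerase that makes dimethylallyl pyrophosphate, was thus the least abundant member, at 3.07 CPM in the mean of the 22 libraries.

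Ordered by group means, most neighbouring groups overlapped. Over the 8 genes there were 40 such neighbouring pairs of groups, and in 38 of them the libraries overlapped. The exceptions were Hmgcs1, which in every WT spleen library exceeded every KO saline library, and Cyp51, which in every KO library of BM after G-CSF exceeded every KO saline library. WT saline BM held the lowest mean for Hmgcs1 (5.45 ± 0.44, SD, n = 4), Fdps (4.47 ± 0.49), Fdft1 (5.02 ± 0.50), Sqle (6.40 ± 0.70) and Lss (5.33 ± 0.24). For Idi1 (1.32 ± 0.47), Cyp51 (5.78 ± 0.46) and Insig1 (5.35 ± 0.31) the lowest mean was in WT spleen. WT BM after G-CSF held the highest mean for Idi1 (1.82 ± 0.23, n = 3), Sqle (7.37 ± 0.05), Lss (5.67 ± 0.34), Cyp51 (6.55 ± 0.11) and Insig1 (6.26 ± 0.16).

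**Figure D1:**
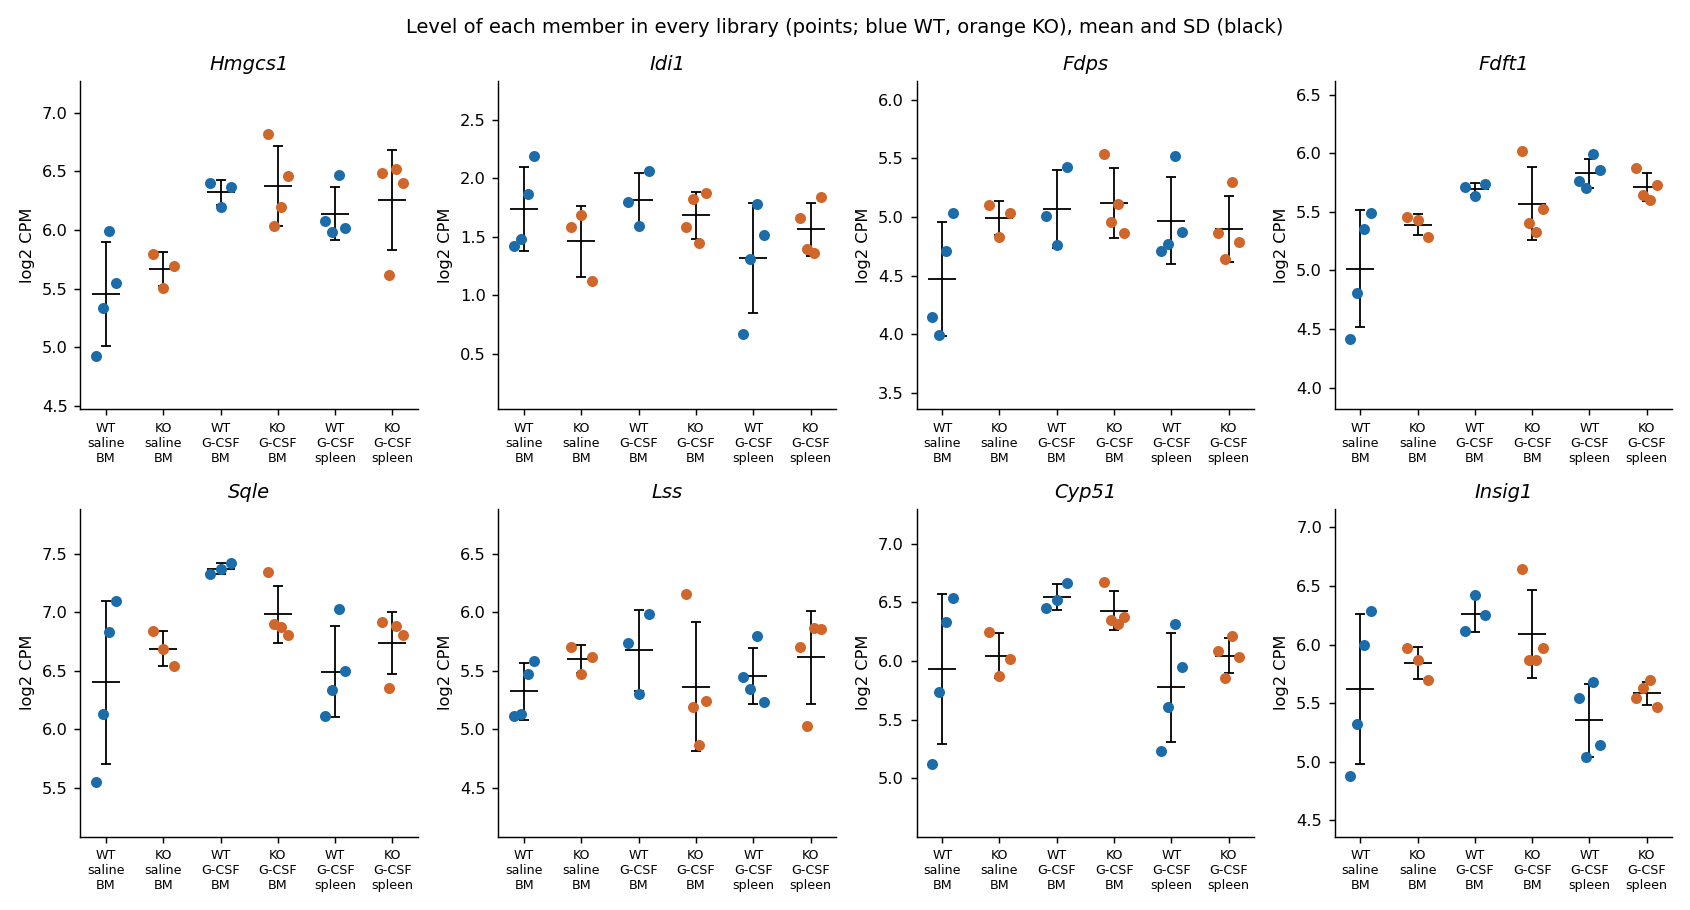
Level of each of the 8 genes (log2 CPM) in every library, by group; points are libraries, and black marks are the mean and SD. All panels span the same number of log2 units. WT saline BM is spread widely, with Sqle from 5.55 to 7.09, while the 3 WT libraries of BM after G-CSF lie between 7.32 and 7.42.

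In 5 of 6 groups 1 library was the highest for at least 6 of the 8 genes, and in KO spleen replicate 3 was the highest for 5. In WT saline BM, replicate 1 was the lowest library for 7 of 8 genes and replicate 4 the highest for 7 of 8. Sqle, squalene epoxidase, spanned 5.55, 6.13, 6.83 and 7.09 in replicates 1 to 4 of that group, and Cyp51, lanosterol demethylase, 5.12, 5.74, 6.33 and 6.54. Replicate 3 of WT spleen was the highest for 8 of 8, replicate 1 of KO BM after G-CSF for 7 of 8, and replicate 1 of KO saline BM for 7 of 8. The lowest library was split in KO saline BM, with replicates 2 and 3 lowest for 4 genes each, and in WT spleen, with replicate 1 lowest for 4 genes, replicate 2 for 3 and replicate 4 for 1. The WT saline libraries had 28146334, 30460832, 30949116 and 29938012 reads in replicates 1 to 4. Summed markers of dividing cells in them were 1057, 917, 904 and 934 CPM, and granulocyte markers 252, 228, 400 and 213 CPM. The part of these in the spread was not tested.

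The next comparison asks how the genes responded to G-CSF in WT marrow. Hmgcs1, the synthase that makes HMG-CoA, Fdft1, squalene synthase, and Sqle rose, Hmgcs1 to 1.83 times and Sqle to 1.96 times the control level. The other 5 did not pass the test, and all 8 had a positive sign. Expression was measured in pooled RNA of many cells, so fewer cells of a type and less RNA per cell cannot be told apart.

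Hmgcs1 was at 4.93, 5.33, 5.99 and 5.55 in the WT saline libraries and at 6.40, 6.20 and 6.37 after G-CSF. Every treated library exceeded every control, and the log2 fold change was 0.87 ± 0.22 (SE, adjusted p = 0.0121). Fdft1 was at 4.41, 4.81, 5.35 and 5.49 after saline and at 5.71, 5.64 and 5.74 after G-CSF. Its groups did not overlap either, with a log2 fold change of 0.68 ± 0.19 (adjusted p = 0.0212). Sqle, at the values given above, was lowest after G-CSF at 7.32 and highest after saline at 7.09, with a log2 fold change of 0.97 ± 0.25 (adjusted p = 0.0148). The annotated exons of Fdft1 share 774 bases (18.3% of its own) with the opposite-strand gene Ctsb, cathepsin B. The strand of counting is not given in the sources used here, so reads there cannot be assigned to either gene. Ctsb was far more abundant, at a mean of 1053 CPM over the 22 libraries beside 47.6 CPM for Fdft1. Ctsb itself had a log2 fold change of 0.24 ± 0.10 in this comparison (adjusted p = 0.154).

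Of the remaining genes, Insig1 had a log2 fold change of 0.64 ± 0.24 (adjusted p = 0.0934), Cyp51 one of 0.61 ± 0.24 (adjusted p = 0.114) and Fdps one of 0.60 ± 0.24 (adjusted p = 0.118). In these 3 genes the WT saline libraries ran from far below the treated ones up into their range. For Fdps the saline libraries were at 4.14, 3.99, 4.71 and 5.04, and the treated ones at 5.01, 4.76 and 5.42. Lss, lanosterol synthase, was at 0.35 ± 0.24 and Idi1 at 0.08 ± 0.29. In all, 3 of 8 genes rose, beside 5.63% of all 13571 genes tested (11.3% in either direction). For the groups without overlap the count was 3 of 8, beside 11.2% of all genes. The median log2 fold change of the 8 was 0.63, and that of all genes -0.01.

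The count rested on single libraries. It was 0 without WT saline replicate 1, where Hmgcs1 had a log2 fold change of 0.70 and adjusted p = 0.0502, 1 without WT saline replicate 2 or WT G-CSF BM replicate 3, and 6 without WT saline replicate 4. Summed granulocyte markers were 213 to 400 CPM after saline and 499 to 673 CPM after G-CSF (7 of 9 markers measured). Of these 7 markers 0 were at or under 3 reads in all libraries of a group. Prtn3 rose (1.37 ± 0.16), the other 6 did not pass, and 3 of the 7, Ngp, Mpo and Elane, had a negative sign. Monocyte and macrophage markers were 41.2 to 68.8 and 118 to 133 CPM (6 of 8), where Cd68 rose (1.81 ± 0.12) and 4 of the 6 had a negative sign, and erythroid markers 38.9 to 69.4 and 109 to 165 CPM (4 of 10). Markers of dividing cells overlapped, at 904 to 1057 and 839 to 1166 CPM (10 of 10). T and NK cell markers were at 77.3 to 105 and 145 to 154 CPM (2 of 6 measured, 2 called higher). Of 5 megakaryocyte markers 2 were called higher and 2 lower. The part of these lists in the result was not tested.

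In KO marrow, Hmgcs1 rose with G-CSF as well, and the other 7 genes did not pass. Hmgcs1 was at 5.79, 5.51 and 5.69 after saline and at 6.82, 6.04, 6.20 and 6.46 after G-CSF. The groups did not overlap, and the log2 fold change was 0.71 ± 0.22 (SE, adjusted p = 0.0436). Cyp51 did not overlap either, at 6.25, 5.87 and 6.02 against 6.68, 6.35, 6.32 and 6.37. Its log2 fold change was 0.38 ± 0.24 (adjusted p = 0.356). Sqle was at 6.84, 6.68 and 6.54 against 7.34, 6.90, 6.87 and 6.81, so that only treated replicate 4 lay below the highest control (0.29 ± 0.25, adjusted p = 0.529). Lss had a negative sign, with -0.23 ± 0.24. Groups did not overlap in 2 of 8 genes, both higher, beside 8.81% of all genes. The count of 1 of 8 compares with 5.58% of all genes higher and 9.89% called in either direction, and the median of the 8 was 0.23. The call of Hmgcs1 was lost with reads scaled to the listed genes (adjusted p = 0.0621), with no variance trend (0.0773) and with the compared groups alone (0.0501). It was also lost in 5 of 7 omissions of 1 library, KO saline replicate 1, 2 or 3 or KO G-CSF BM replicate 1 or 4, with log2 fold changes of 0.57 to 0.78. In KO, granulocyte markers were 189 to 265 CPM after saline and 391 to 719 after G-CSF. Of the 7 measured, Prtn3 (1.03 ± 0.16) and Ltf (2.58 ± 0.82) rose, and the others did not pass. Among the 7, 5 had a positive sign, while Ngp (-3.38 ± 1.72) and Mpo (-0.31 ± 1.03) had a negative sign. Markers of dividing cells were at 711 to 1002 and 1285 to 1608 CPM. Monocyte and macrophage markers were 54.6 to 75.3 and 103 to 142 CPM, with 2 of 6 called higher and 3 lower. Erythroid markers were 62.2 to 73.6 and 107 to 118 CPM. T and NK cell markers were 86.5 to 108 and 135 to 189 CPM (2 of 6 measured, 1 called higher). Of 5 megakaryocyte markers 3 were called lower. The part of these lists was not tested.

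Whether the response to G-CSF differed between the genotypes was tested as an interaction. By limma 0 of 8 genes passed, as did 0 of all 13571 genes (0% called), with 0 members at an unadjusted p under 0.05 and 0 by voom. In 7 of 8 genes the difference in response was negative, meaning a lower log2 fold change in KO than in WT, with a median of -0.43 against -0.01 for all genes. It was -0.68 for Sqle, with a 95% interval of -1.42 to 0.07, -0.58 for Lss (-1.29 to 0.12) and -0.50 for Fdft1 (-1.05 to 0.05). For Hmgcs1 it was -0.16 (-0.81 to 0.49). The intervals of these 4 genes include 0, and those of Sqle, Lss and Fdft1 also include a difference as large as the WT response. For Hmgcs1 a difference as large as the WT response of 0.87 lies outside the interval. Neither equality nor a difference was shown.

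**Figure D2:**
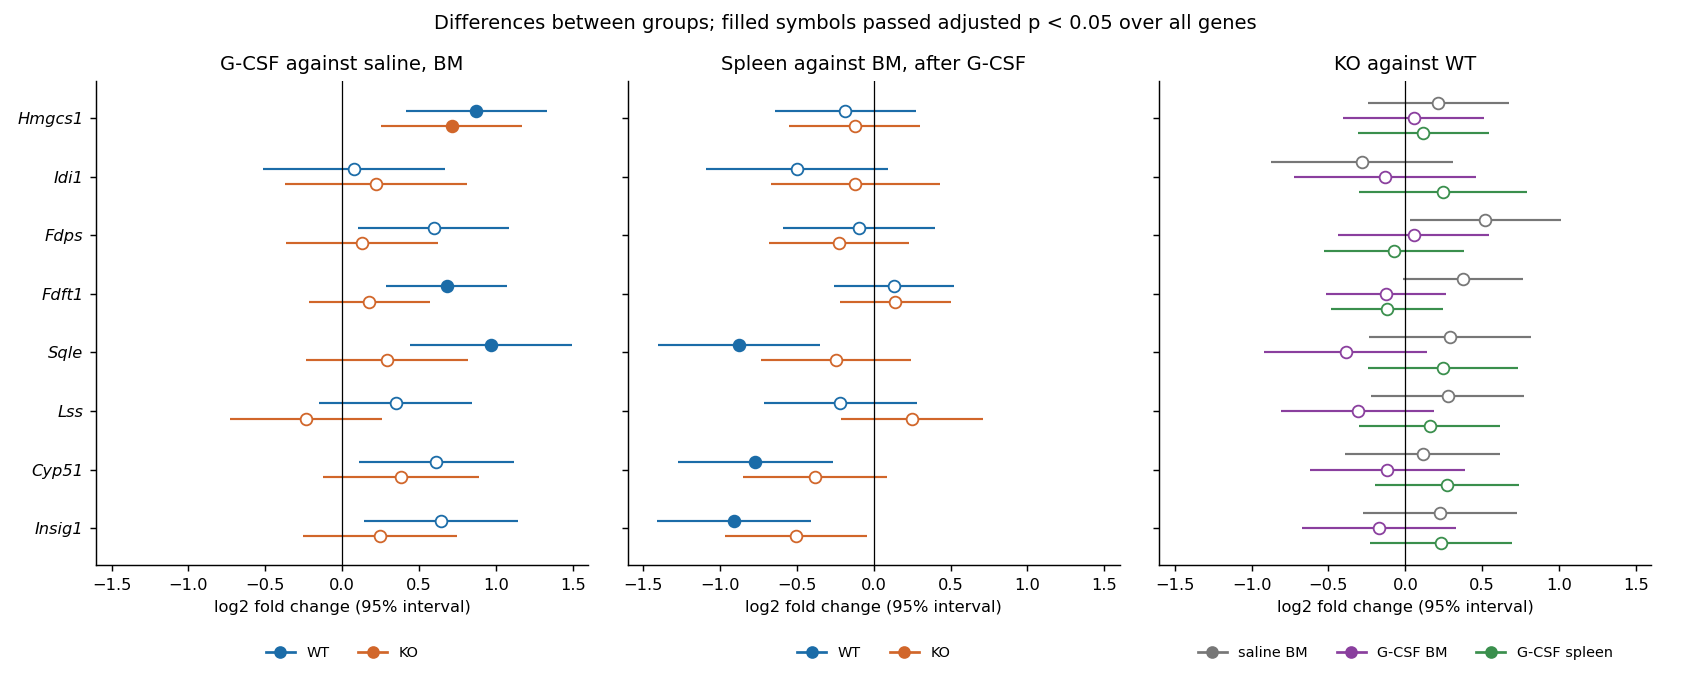
Log2 fold changes of the 8 genes with 95% intervals for G-CSF against saline in BM, spleen against BM after G-CSF, and KO against WT; filled symbols passed an adjusted p under 0.05. Filled symbols appear for Hmgcs1, Fdft1 and Sqle in WT and Hmgcs1 in KO with G-CSF, and for Sqle, Cyp51 and Insig1 in WT spleen.

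HSCs from spleen and from marrow of treated mice were compared to ask whether the genes differed between the 2 tissues under G-CSF. Whether same-numbered libraries came from the same mice is not given in the sources used here. The fit treated all libraries as independent. In WT, Insig1, Sqle and Cyp51 fell in spleen, to 0.532, 0.544 and 0.586 of the marrow level. The other 5 did not pass, with log2 fold changes from -0.50 (Idi1) to 0.13 (Fdft1), Hmgcs1 at -0.18, Lss at -0.22 and Fdps at -0.10.

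Insig1 was at 6.11, 6.43 and 6.25 in WT marrow and at 5.55, 5.04, 5.68 and 5.14 in WT spleen. All spleen libraries lay below all marrow libraries, with a log2 fold change of -0.91 ± 0.24 (SE, adjusted p = 0.0164). Sqle was at 7.32, 7.37 and 7.42 in marrow and at 6.11, 6.33, 7.02 and 6.50 in spleen. Its log2 fold change was -0.88 ± 0.25 (adjusted p = 0.0257), with replicate 3 of spleen nearest to the marrow values. Cyp51 was at 6.45, 6.52 and 6.67 in marrow and at 5.23, 5.61, 6.32 and 5.95 in spleen (-0.77 ± 0.24, adjusted p = 0.0383). Its annotated exons share 166 bases (3.76%) with the opposite-strand gene Akap9, which had a log2 fold change of 0.23 ± 0.14 (adjusted p = 0.299).

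Idi1 had a log2 fold change of -0.50 ± 0.29 (adjusted p = 0.254), with WT spleen replicate 1 at 0.67 and the other spleen libraries at 1.31, 1.78 and 1.51. Fdft1 was at 5.76, 5.71, 5.99 and 5.86 in spleen, within or above its marrow range, with a log2 fold change of 0.13 and a 95% interval of -0.26 to 0.53. Ctsb, with which it shares exon bases, rose in this comparison (0.53 ± 0.10, adjusted p = 0.00299). Of 8 genes 3 fell, beside 6.83% of all genes (13.8% called in either direction), and the groups of these 3 did not overlap, beside 13.8% of all genes lower without overlap. The median of the 8 was -0.36, against 0.02 for all genes. With no variance trend only Insig1 of the 8 passed. With the replicate block, which matches libraries by number, Sqle, Cyp51 and Insig1 kept their calls (limma adjusted p = 0.0138, 0.0201 and 0.0235). Without WT G-CSF BM replicate 2 or WT spleen replicate 2 the count was 0, and it was 1 without WT G-CSF BM replicate 1 or 3 or WT spleen replicate 1. Markers of dividing cells were at 578 to 920 CPM in WT spleen and 839 to 1166 in WT marrow, and granulocyte markers at 338 to 434 and 499 to 673 CPM. Monocyte and macrophage markers were at 214 to 244 and 118 to 133 CPM, with C1qc at or under 3 reads in spleen. Cd68 rose there (1.02 ± 0.12), while 5 of 6 of these markers had a negative sign and Vcam1 (-1.78 ± 0.46) and C1qb (-3.09 ± 0.86) fell. Megakaryocyte markers (5 of 5) were at 94.4 to 122 and 198 to 225 CPM, and T and NK cell markers (2 of 6) at 189 to 213 and 145 to 154 CPM. Of 4 erythroid markers Epor (-1.33 ± 0.35) and Gata1 (-1.27 ± 0.26) fell. Their part was not tested.

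In KO, spleen and marrow after G-CSF did not differ past the threshold in any of the 8 genes. By limma 0 of 8 passed (1.27% of all genes called), 1 had an unadjusted p under 0.05 and 0 passed by voom. That 1 gene was Insig1, at 6.65, 5.87, 5.87 and 5.97 in marrow and 5.54, 5.63, 5.70 and 5.47 in spleen (-0.51 ± 0.22, adjusted p = 0.385). Insig1 and Cyp51 (-0.38 ± 0.23, adjusted p = 0.562) were lower in every KO spleen library than in every KO marrow library, beside 2.28% of all genes. Lss had a positive sign (0.25 ± 0.22). In the interaction of genotype with tissue, 0 of 8 passed by limma and 0 by voom, and 0 had an unadjusted p under 0.05 (0% of all genes called, but 245 genes without KO G-CSF BM replicate 3, with 0 of the 8 among them). The median difference was 0.38, meaning a smaller drop in KO spleen, and for Sqle it was 0.63 with an interval of -0.08 to 1.35. Both tissue comparisons and the responses to G-CSF share the marrow libraries of treated mice, so a high level there enters both.

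KO and WT were compared in each setting to ask whether loss of Cd53 changed the genes. It did so past the threshold in none of the 8 genes in any of the 3 settings. By limma 0 of 8 passed in saline BM (0.00737% of all genes called), in BM after G-CSF (0.147%) and in spleen (0.0147%). These shares moved with the setting: 504 genes were called in BM after G-CSF without KO G-CSF BM replicate 3, in place of 20, and in spleen 309 with sample weights and 31 without WT spleen replicate 3, in place of 2. None of the 8 genes was called under those settings. At an unadjusted p under 0.05 the counts were 1, 0 and 0, and by voom 0 passed in each. The groups overlapped in all 8 genes in all 3 settings, where 4.95%, 7.46% and 8.37% of all genes did not overlap.

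In saline BM, 7 of 8 genes were higher in KO in the mean. Fdps, the synthase of farnesyl pyrophosphate, had the largest difference of the 8, at 5.11, 4.83 and 5.04 in KO (0.52 with a 95% interval of 0.03 to 1.01, adjusted p = 0.9998). KO replicate 1 alone exceeded every WT library. Fdft1 followed with 0.38 (-0.02 to 0.77). KO libraries of saline BM sat closer together than WT ones, with an SD of 0.15 against 0.70 for Sqle and of 0.09 against 0.50 for Fdft1. Without WT saline replicate 1 the log2 fold changes of Cyp51 and Insig1 turned negative (-0.16 and -0.025). In BM after G-CSF the differences ran from -0.39 (Sqle, interval -0.92 to 0.14) to 0.06 (Hmgcs1), and in spleen from -0.12 (Fdft1) to 0.27 (Cyp51, interval -0.20 to 0.74). Summed markers of dividing cells were higher in KO in both treated settings, at 1285 to 1608 against 839 to 1166 CPM in marrow and 971 to 1283 against 578 to 920 CPM in spleen, and their part was not tested.

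The authors' deposited table adds a comparison of spleen after G-CSF with saline marrow, in which treatment and tissue change together. In WT, the authors' deposited table called 3 of 8 genes, all higher: Fdft1 (0.86), Hmgcs1 (0.66) and Fdps (0.60). Of its genes 17.5% were called higher there and 34.6% in either direction. In KO, the authors' deposited table called 1 of 8, Hmgcs1, which was higher (0.74, adjusted p = 0.0182). Of its genes 5.02% were called higher there and 8.76% in either direction. For Sqle the authors' deposited table gave 0.15 in WT and 0.12 in KO, and for Insig1 -0.25 and -0.26, none called. For KO against WT the authors' deposited table called 0 of 8 genes in spleen, beside 2.22% of its genes. In saline marrow it called 0 of 8, beside 0.00736%. There the authors' deposited table gave 0.66 for Fdps and 0.46 for Fdft1 (adjusted p = 0.765 for each).

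The rest of the sterol pathway was read from a list of 15 other enzymes, all measured. With G-CSF in WT marrow 2 of 15 rose and 0 fell, beside 5.63% of all genes in each direction. They were Msmo1, which removes methyl groups from the sterol ring (1.18 ± 0.31, SE, adjusted p = 0.0154), and Ebp, a sterol isomerase (0.47 ± 0.12, adjusted p = 0.0115). Msmo1 ran from 4.44 to 6.36 after saline and from 6.62 to 6.90 after G-CSF, and it no longer passed when replicate 1 or 2 of WT saline or replicate 3 of WT G-CSF BM was omitted (adjusted p = 0.0517 to 0.0670). Ebp lost its call without WT G-CSF BM replicate 3. The median of the 15 in WT was 0.21. In WT spleen 2 of 15 were called, 1 in each direction, beside 13.8% of all genes called in either direction, a share near that of the list. Lbr, a sterol reductase that also anchors chromatin to the nuclear envelope, fell (-0.46 ± 0.12). Pmvk, phosphomevalonate kinase, rose (0.37 ± 0.12). The call of Pmvk was lost in 6 of 7 omissions and that of Lbr in 1, WT G-CSF BM replicate 1. In KO spleen 0 of 15 passed, beside 1.27% of all genes called, with 2 at an unadjusted p under 0.05.

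**Figure D3:**
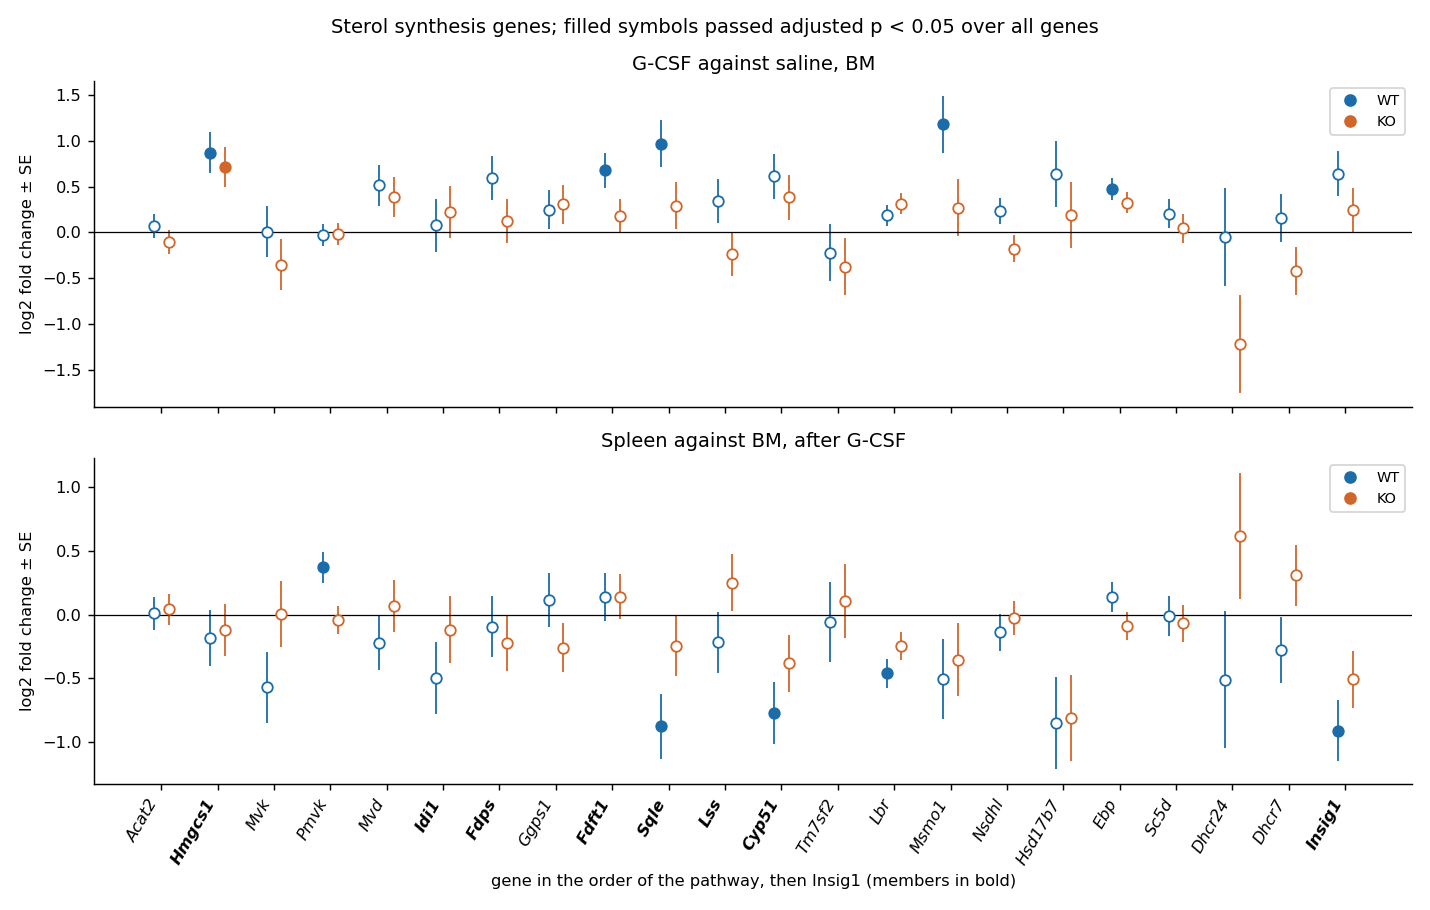
Log2 fold changes (± SE) of the sterol enzymes named on the axis, in pathway order, then Insig1, for G-CSF against saline in BM (top) and spleen against BM (bottom); blue is WT, orange is KO, and filled symbols passed an adjusted p under 0.05. Hmgcs1 in both genotypes and Fdft1, Sqle, Msmo1 and Ebp in WT are filled at the top.

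Of 11 genes of SREBP control, 3 fell and 0 rose in WT spleen against marrow, beside 6.83% of all genes lower, and 8 did not pass. Those that fell were Srebf1 (-1.26 ± 0.27, SE, adjusted p = 0.00510) and Srebf2 (-0.86 ± 0.18, adjusted p = 0.00428), which encode the 2 SREBP precursors, and Mbtps1, the protease that makes the first cut in them (-0.37 ± 0.10, adjusted p = 0.0188). Srebf2 was at 6.53 to 6.97 in WT marrow and 5.51 to 6.01 in WT spleen, and Srebf1 at 5.52 to 5.77 and 4.03 to 4.81. Both kept their call in every omission of 1 library, and Mbtps1 lost it in 4 of 7. In KO spleen 0 of 11 passed by limma and 0 had an unadjusted p under 0.05, with Srebf2 at -0.32 ± 0.17 and Srebf1 at -0.06 ± 0.25. The difference between genotypes in this change of Srebf1 was 1.199 ± 0.372 (KO minus WT, SE, log2 scale) and did not pass (adjusted p = 0.281). With G-CSF 0 of 11 passed in either genotype, with 1 and 2 at an unadjusted p under 0.05, and Srebf1 had a log2 fold change of 0.71 ± 0.27 in WT (adjusted p = 0.103).

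Among 12 measured genes of uptake and lysosomal release, 2 rose with G-CSF in WT, beside 5.63% of all genes. Vldlr, the receptor of very low density lipoprotein, went from 3.52 to 3.64 after saline to 8.11 to 8.30 after G-CSF (4.61 ± 0.13, SE). Lrp1, a broad lipoprotein and protease receptor, had a log2 fold change of 2.11 ± 0.19. In KO marrow 5 of 12 were called, beside 9.89% of all genes. Vldlr (3.86 ± 0.13), Lrp1 (1.69 ± 0.19) and Lipa, the lysosomal lipase (0.33 ± 0.09), rose. Stard4, a cytosolic sterol carrier, fell (-0.67 ± 0.17), as did 1 other, Lrp8. Stard4 lost its call without KO saline replicate 1, Lipa without KO saline replicate 2 or 3, and Lrp8 in 4 of 7 omissions. Vldlr and Lrp1 kept their calls in every omission of 1 library in both genotypes. In WT spleen 3 of 12 were called, beside 13.8% of all genes, and in KO spleen 1 of 12, beside 1.27%. In WT spleen Vldlr (-1.43 ± 0.13), Lrp1 (-0.85 ± 0.19) and Npc1, which moves cholesterol out of lysosomes (-0.49 ± 0.13), fell, and in KO spleen Vldlr fell (-1.34 ± 0.12). The call of Npc1 was lost without WT G-CSF BM replicate 1 or 3.

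Of 11 measured genes of storage, efflux and the sterol sensor LXR, 2 rose with G-CSF in WT, Soat1 (0.98 ± 0.17, SE) and Soat2 (1.36 ± 0.42), the enzymes that esterify cholesterol. The share of all genes higher in that comparison was 5.63%, and for the lists that follow the shares called in either direction were 11.3% for G-CSF in WT, 9.89% in KO and 13.8% for WT spleen. Soat1 rose in KO too (1.14 ± 0.17) and Nr1h3, which encodes LXR alpha, fell there (-0.81 ± 0.22), except without KO saline replicate 1, where its adjusted p was 0.126. Soat1 kept its call in every omission in both genotypes, and Soat2, at 0.15 to 1.62 after saline, lost it in 4 of 7. In WT spleen Apoe, a carrier of cholesterol that macrophages also make, fell (-2.88 ± 0.66), as did Osbpl1a (-0.34 ± 0.11). The call of Apoe was lost without WT G-CSF BM replicate 1 (adjusted p = 0.0631) and that of Osbpl1a in 6 of 7 omissions. Of 14 genes of fatty acid synthesis 3 were called with G-CSF in WT, 2 in KO and 3 in WT spleen. Elovl5 (0.47 ± 0.09) and Tmem97 (0.60 ± 0.18) rose and Elovl6 fell (-0.44 ± 0.13) with G-CSF in WT, and in KO Elovl5 rose (0.32 ± 0.09) and Fads1 fell (-0.47 ± 0.12). In WT spleen Fasn, fatty acid synthase (-0.87 ± 0.19), and Scd2, a desaturase (-0.63 ± 0.20), fell, and Fabp5 rose (0.60 ± 0.17). Fasn and, in WT, Elovl5 kept their calls in every omission, and the others lost theirs in 3 to 6 of 7. Of 12 genes of isoprenoid branches 1, 1 and 2 were called in these comparisons, shares near those of all genes. Coq2 fell with G-CSF in WT (-0.63 ± 0.20, lost in 7 of 7 omissions) and Nus1 rose in KO (0.50 ± 0.15, lost in 4). In WT spleen Srd5a3 rose (0.81 ± 0.27, lost in 5) and Dolk fell (-0.60 ± 0.18, lost in 3). KO against WT gave 0 calls by limma in each of the 6 lists and 3 settings, with 0 to 3 genes a list at an unadjusted p under 0.05.

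The 8 genes varied together among libraries of the same group. Over the 28 pairs, Pearson's r of the deviations from group means ran from 0.31 to 0.95, with a median of 0.69, across 22 libraries that share depth and scaling within each library. The pair of Sqle and Cyp51 had the highest r (0.95). The 7 pairs with Idi1 had an r of 0.31 to 0.69, and the 21 without it 0.54 to 0.95. These are descriptions of these libraries.

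The genes of most similar pattern were taken by Pearson's r with the mean of the 8 genes, each centred, over 22 libraries and 9079 genes of a mean of at least 3 log2 CPM. Among the 6 highest were Msmo1 (r = 0.93), Scd2 (0.81), Aacs (0.81) and Tars (0.80). The r of single genes at the 95th percentile was 0.50 and the median 0.03. These 6 were chosen by the same r, so their place above that percentile follows from the choice. With deviations from the group means in place of levels, r was 0.93 for Msmo1, 0.76 for Scd2 and Aacs and 0.73 for Tars. The order by rank correlation kept Msmo1 at 1 and put Tars at 7, Aacs at 20 and Scd2 at 57. Srebf2 had an r of 0.48 over the libraries and 0.51 over the deviations, where the 95th percentile of single genes was 0.45. Vldlr had an r of 0.51 over the libraries and -0.19 over the deviations.

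**Figure D4:**
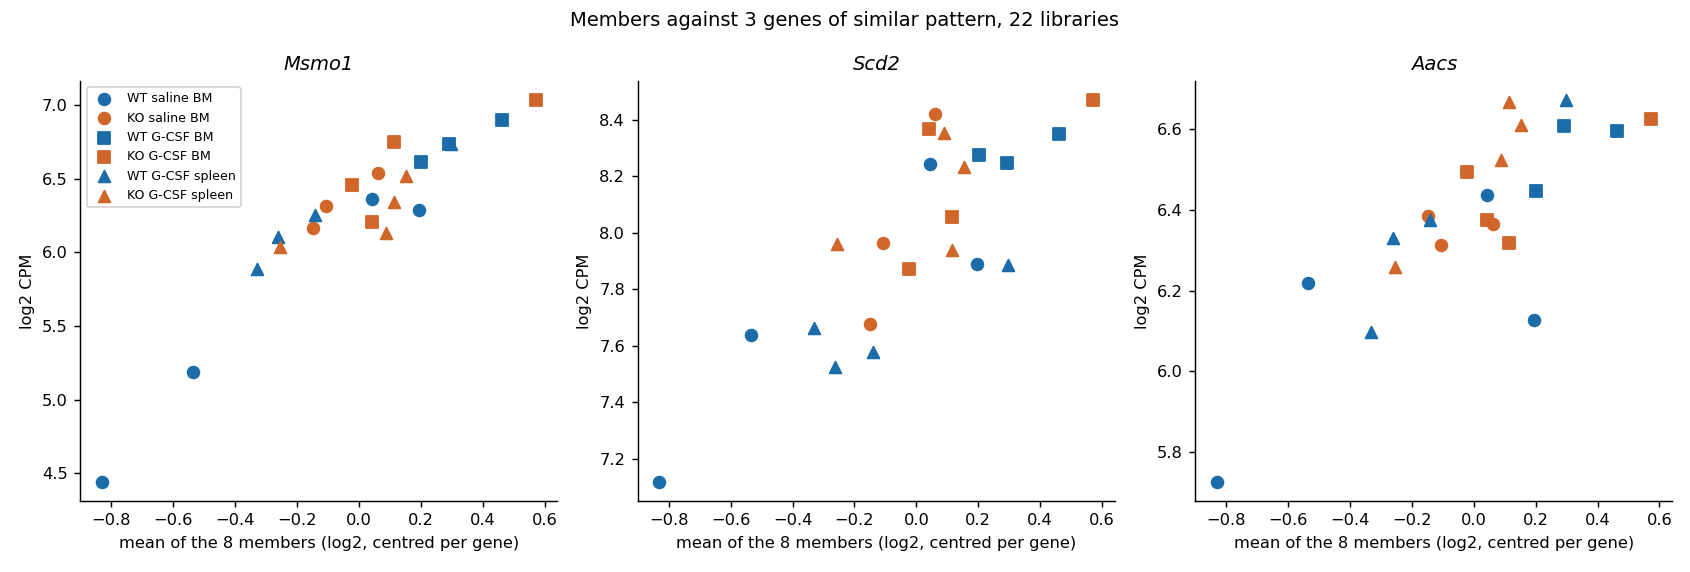
Log2 CPM of Msmo1, Scd2 and Aacs against the mean of the 8 genes (log2, centred per gene) in 22 libraries; blue is WT, orange is KO, and the symbol gives the treatment and tissue. WT saline replicates 1 and 2 lie at -0.83 and -0.53 on the horizontal axis, below the other 20 libraries.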

How the data were processed

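RNA of sorted HSCs was sequenced with a SMARTer low-input kit, per the labels' protocols. Per the submitters' processing notes, the tools were limma, edgeR, Salmon 0.8.2, STAR 2.5.1a, featureCounts 1.4.6-p5 of Subread, and bcl2fastq, on build mm10, with no role stated. The authors deposited 1 table of log2 CPM values per library beside log2 fold changes, p-values and a linear fold score of 4 comparisons of their own. The deposited values gave whole reads for 100% of entries (tolerance 0.05 reads) once an added 0.5 reads was removed. The table had 13645 lines for 13594 genes, and 51 identical repeats were dropped. Depth was 22578088 to 31268856 reads per library, and 3 reads equal 0.0918 to 0.139 CPM, which covers counting error only.

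Genes above 1 CPM in at least 3 samples (13571) entered a single limma fit on the deposited log2 values (limma 3.58.1 under R 4.3.3), with a mean per group, a variance trend and 16 residual degrees of freedom. The fold changes are on the scale of log2 of reads plus 0.5. The threshold was an adjusted p under 0.05, by the Benjamini-Hochberg method over all tested genes, in each of 9 comparisons. Intervals are 95% intervals of limma. Alternatives were the filter, the pseudocount, the scaling, the variance trend, the samples in the fit, sample weights, voom, a replicate block and the omission of each library. The fit was tested on simulated data. The members and lists were chosen with earlier results of these data known. Named are the 8 members, Cd53, genes of each list past the threshold (at most 4 a list and comparison, by smallest p) and genes among the 6 of most similar pattern. Some genes that this rule would name are not reported here. Other genes, such as Ctsb, Akap9, Cd48, other marker genes, Lrp8 and single genes that did not pass, were named after their values were seen. Positions and exon lengths are from GENCODE on GRCm38. Python 3.11.15, pandas 2.3.3, NumPy 2.4.6 and matplotlib 3.10.9 were used.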

Additional observations from a re-analysis of the deposited data

Results flagged for a closer look

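Of 32 group values tested, the members in groups of 4 libraries, 3 stood apart, each with a gap to the next library of more than 0.829 of the group's range. Chance flags about 1 in 20 such groups, and the 8 genes vary together. Hmgcs1 was at 5.61 in KO spleen replicate 2, far below the other 3 libraries of that group. Cyp51 was at 6.68 and Insig1 at 6.65 in KO G-CSF BM replicate 1, far above the other 3.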

How the results depend on the processing

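Results per comparison and setting numbered 9 counts of members and 72 log2 fold changes. In WT with G-CSF the count of 3 became 6 with sample weights and 6 with the replicate block, a fit of the compared groups in which WT saline replicate 4 has no partner, and 0 to 6 over the omissions of 1 library. In KO with G-CSF the count of 1 became 0 with reads scaled to the listed genes, with no variance trend and with the compared groups alone, and 0 to 1 over the omissions. In WT spleen against BM the count of 3 became 1 with no variance trend and 0 to 3 over the omissions. The other 6 counts, each 0, were 0 under every alternative run.

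Single log2 fold changes that changed sign were small and never past the threshold. With sample weights Fdps had -0.056 in KO against WT in BM after G-CSF, 0.066 in spleen and 0.12 in the interaction with tissue, and Idi1 had -0.0066 in the interaction with G-CSF, where the replicate block gave -0.068. Over the omissions, KO against WT in saline BM ran from -0.16 to 0.32 for Cyp51 and from -0.025 to 0.45 for Insig1. In BM after G-CSF it ran from -0.091 to 0.17 for Hmgcs1 and from -0.10 to 0.23 for Fdps, and in spleen from -0.21 to 0.11 for Fdps. With G-CSF, Idi1 in WT ran from -0.044 to 0.23 and Fdps in KO from -0.013 to 0.21. In spleen against BM, Fdps in WT ran from -0.28 to 0.083 and Hmgcs1 in KO from -0.24 to 0.091. The interaction with G-CSF ran from -0.34 to 0.015 for Hmgcs1, from -0.025 to 0.27 for Idi1 and from -0.43 to 0.040 for Cyp51. The interaction with tissue ran from -0.051 to 0.28 for Hmgcs1, from -0.31 to 0.055 for Fdps and from -0.073 to 0.16 for Fdft1. The cause was not tested in any of these. Fdft1 in WT with G-CSF was at adjusted p = 0.0752 with the compared groups alone.

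Same-numbered libraries correlated weakly at most: r of their deviations over all genes ran from -0.07 to 0.16 over 23 pairs. Each sample correlated best with its own number in 3 of 3 pairs for WT spleen against BM and for KO with G-CSF. In these comparisons pairing was neither shown nor excluded. Elsewhere 1 or 2 samples correlated best with their own number. With the replicate block, 816 genes were called in WT with G-CSF in place of 1528, 1025 in KO in place of 1342, and 58 in KO spleen against BM in place of 172. With the compared groups alone, 613 were called in KO with G-CSF and 78 in KO spleen against BM. In WT spleen against BM the 1867 calls became 1331 with the replicate block, 2863 with sample weights and 674 without WT G-CSF BM replicate 1. Under the replicate block the calls of Lbr, Pmvk, Mbtps1, Npc1, Osbpl1a, Fabp5 and Dolk in WT spleen were lost, as were those of Ebp, Soat2, Elovl6, Tmem97 and Coq2 with G-CSF in WT and of Lrp8, Lipa, Nr1h3, Elovl5 and Nus1 in KO. Scaling to the listed genes moved the split of higher and lower calls with G-CSF from 764 and 764 to 556 and 1047 in WT, and from 757 and 585 to 589 and 799 in KO.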
